A study of Mus musculus with 6 samples.

Results

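Fas, Eda2r, Tnfrsf10b, Fadd, Casp8, Casp9, Apaf1 and Xiap encode the receptors, adaptor, initiator caspases, apoptosome scaffold and caspase inhibitor of the apoptotic pathways. They were taken by symbol from the deposited exon table as 8 of its 55378 genes, and all 8 were among the 15619 genes with enough counts to be tested. The study injected mouse zygotes with an siRNA against Eif4a3 (siRNA-Eif4a3, the Eif4a3-KD group) or with a negative control siRNA (siRNA-NC, the NC group) and collected blastocysts on day 5. Each group has 3 Smart-seq2 libraries and each library holds a pool of 5 embryos, so a value is an average over embryos and over every cell type of the blastocyst. The labels name no strain, age or sex of the embryos, and the microinjection at the zygote stage is shared by both groups. They do not say that the pools came from separate parents, so the p-values measure only the spread between these samples.

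Death receptors are cell surface proteins of the tumour necrosis factor (TNF) receptor family. A bound ligand lets a receptor such as Fas recruit the adaptor Fadd, which gathers and activates the initiator caspase Casp8. In the intrinsic pathway, cytochrome c released from mitochondria assembles Apaf1 into the apoptosome, which activates the initiator caspase Casp9, and Xiap holds caspases in check. Fas, Eda2r, Tnfrsf10b and Apaf1 are known transcriptional targets of p53, and apoptosis of single cells is a normal event in the mouse blastocyst.

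The 3 receptors rose in Eif4a3-KD blastocysts and none of the other 5 genes passed the test. Of the 8 genes, 3 were called higher and 0 were called lower at an adjusted p under 0.05 (edgeR quasi-likelihood test, adjusted over all genes tested), where 7.52% of all genes tested were called higher and 5.56% lower. Fas, among these 3, passed the filter on low counts only through the Eif4a3-KD group, where it was high. Every Eif4a3-KD library lay above every NC library for 3 of the 8 genes, against 20.1% of all genes tested, and below every NC library for 2, against 16.4%. The median log2 fold change of the 8 genes was 0.01, against 0.03 for all genes tested. Because the 8 genes were chosen with earlier results of these data known, these comparisons with all genes are descriptions only. Values per library are CPM, counts scaled by the library's effective size in edgeR. Each mean is given ± its SD (n = 3 libraries), and fold changes are Eif4a3-KD over NC.

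**Figure D1:**
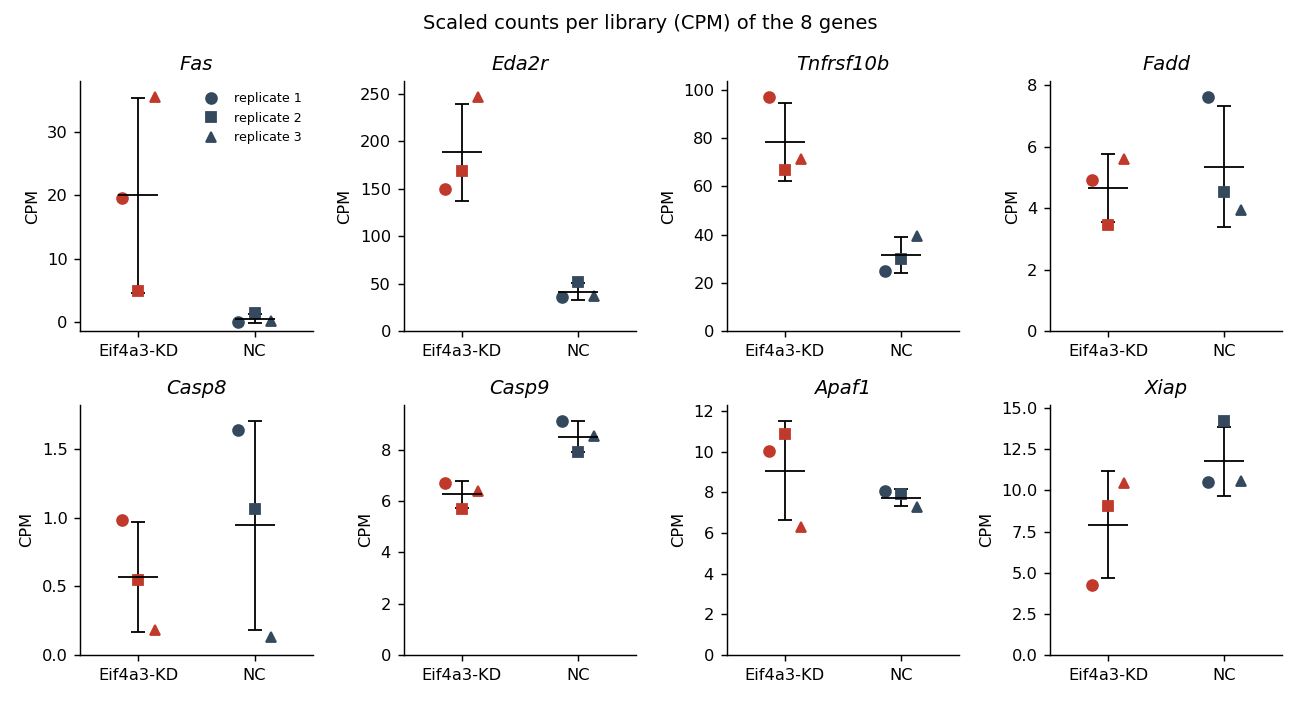
CPM of each gene in the 3 Eif4a3-KD (red) and 3 NC (dark blue) libraries, with marker shape giving the replicate number, a horizontal line at the mean and bars of 1 standard deviation. The 3 receptors are higher in every Eif4a3-KD library (Eda2r 149.6 to 246 CPM, against 36.3 to 51.9 CPM in NC), while Fadd, Casp8 and Apaf1 overlap.

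The libraries held 16157719 to 18697754 gene counts in Eif4a3-KD and 15607227 to 18389986 in NC. Eif4a3, the RNA helicase of the exon junction complex that the siRNA targets, had 16.03, 36.2 and 56.2 CPM in Eif4a3-KD libraries, against 302, 255 and 202 CPM in NC libraries (log2 fold change -2.81, standard error 0.44, edgeR adjusted p = 0.00512). Among all genes tested, 5.56% were called lower and 7.52% higher, beside which the marker calls that follow are given. Summed trophectoderm markers were 479 to 2129 CPM in Eif4a3-KD and 2104 to 5550 CPM in NC, with 3 of 6 tested markers (Eomes, Gata3 and Krt18) lower and 0 higher. Summed epiblast and inner cell mass markers were 130.2 to 163 CPM in Eif4a3-KD and 232 to 301 CPM in NC (1 of 6 tested, Sox2, lower). Summed primitive endoderm markers were 54.2 to 71.4 CPM in Eif4a3-KD and 75.9 to 84.7 CPM in NC (1 of 3 tested, Pdgfra, lower). Of 6 cumulus cell markers 5 were at 0 in all libraries and Foxl2 reached at most 0.0469 CPM, while summed sperm markers were 0.969 to 3.31 CPM in Eif4a3-KD and 1.04 to 2.43 CPM in NC. Summed blood markers were 2.91 to 6.36 CPM in Eif4a3-KD and 5.91 to 41.04 CPM in NC (1 of 3 tested, Hbb-bs, lower), and fibroblast markers were 0.963 to 10.7 CPM in Eif4a3-KD and 1.79 to 11.7 CPM in NC. Sox2, Pdgfra and Hbb-bs, each the only call of its list, passed the filter on low counts only through NC, where they were high. Their counts in Eif4a3-KD were 6, 18 and 5 for Sox2, 1, 15 and 9 for Pdgfra and 12, 7 and 2 for Hbb-bs. The testing of these genes itself thus depended on their level in NC. The part of these marker differences in the results below was not tested, and in pooled embryos fewer cells of a type and less RNA per cell cannot be told apart.

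Upstream sequence is shown for Fas and Eda2r, the receptors with the largest changes. Each line gives the 250 bases before the RefSeq gene start (GRCm38.p6, 5′ to 3′ on the gene's strand), at chr19:34290409-34290658 on the plus strand for Fas and chrX:97377210-97377459 on the minus strand for Eda2r. Capitals mark matches to an AP-1 site (TGANTCA) and a GC box (GGGCGG) in Fas, and to a GC box and a TATA box (TATAAA) in Eda2r.
Fas upstream: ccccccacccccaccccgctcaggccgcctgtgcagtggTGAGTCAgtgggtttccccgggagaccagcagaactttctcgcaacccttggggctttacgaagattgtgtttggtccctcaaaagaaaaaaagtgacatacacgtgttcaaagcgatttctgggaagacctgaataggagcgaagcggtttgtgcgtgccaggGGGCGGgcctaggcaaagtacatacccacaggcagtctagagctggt
Eda2r upstream: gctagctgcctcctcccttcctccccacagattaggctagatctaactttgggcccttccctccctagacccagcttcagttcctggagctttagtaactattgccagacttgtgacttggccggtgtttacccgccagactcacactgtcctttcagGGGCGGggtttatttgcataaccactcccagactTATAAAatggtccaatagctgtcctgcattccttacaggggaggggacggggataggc

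The AP-1 match of Fas begins 211 bases and its GC box 47 bases before the start. In Eda2r the GC box begins 92 bases and the TATA box 58 bases before the start. Of the 8 genes, 7 were matched in the RefSeq promoter table, with 3 windows for Xiap and none for Tnfrsf10b, and both strands were searched. Among the other windows a GC box matched 4 times in Casp9, 2 times each in Fadd and Apaf1, once in each of 2 Xiap windows and not in Casp8, and the remaining Xiap window held a TATA box. The p53 half-site and the NF-kB site, searched by their consensus, had 0 matches in all of these windows. Over 32851 windows of the same 250 bases, 32.74% held a GC box, 12.37% a TATA box, 6.749% an AP-1 site, 7.126% a p53 half-site and 7.251% an NF-kB site. A match describes letters in this window and is not a measured binding site. An absent match says nothing of sites outside the window, which ends at the gene start.

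Fas, the receptor for Fas ligand, was the third highest of the 8 genes per kilobase in Eif4a3-KD and the lowest in NC. It had 19.6, 4.85 and 35.6 CPM in Eif4a3-KD libraries 1 to 3, against 0, 1.39 and 0.131 CPM in NC libraries 1 to 3. The groups did not overlap, although the lowest Eif4a3-KD library and the highest NC library were both replicate 2. These values stand for 418, 80 and 592 counts in Eif4a3-KD, against 0, 21 and 2 counts in NC. The NC counts alone would not have passed the filter, so the testing of Fas itself depended on its level in Eif4a3-KD. The 0 of NC replicate 1 allows up to 3 counts, or 0.149 CPM. Means were 20.02 ± 15.4 CPM in Eif4a3-KD and 0.509 ± 0.770 CPM in NC, a 39.4-fold difference (log2 fold change 5.34, standard error 1.14, edgeR adjusted p = 0.0154). NC held 23 counts in all, against 1090 in Eif4a3-KD, and the fold moved with the NC libraries used: it was 8.22 on the log2 scale without NC replicate 2, and without NC replicate 3 it was 4.89 and no longer passed (adjusted p = 0.0588, the highest of its 14 alternatives, whose lowest was 4.8e-18). The order of Fas among the Eif4a3-KD libraries was not that of the residual Eif4a3, which was highest in replicate 3 and lowest in replicate 1. Nor was that of Tnfrsf10b, while Eda2r had the same order as the residual Eif4a3. Xiap and Xist (the RNA of the inactive X), X-linked like Eda2r, had this order too, so it is not particular to the residual Eif4a3. The part of the residual Eif4a3 in these orders was not tested.

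The gene lies at chr19:34290666-34327772 on the plus strand (GRCm38), and its annotated exons merge into 12 blocks of 2062 bases. Block 9, of 54 bases at chr19:34318783-34318836, is the sixth exon (exon 6) of the transcript with 9 exons. This exon encodes the membrane-spanning segment of Fas, and its skipping is known to give a soluble receptor, so its sequence is shown (GENCODE M21, GRCm38, plus strand, 5′ to 3′, no capitals).
Fas exon 6: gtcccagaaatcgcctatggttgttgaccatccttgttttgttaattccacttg

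Block 9 had 37, 3 and 67 counts in Eif4a3-KD, against 0, 1 and 0 in NC. Block 8 before it, of 62 bases, had 45, 6 and 79 counts in Eif4a3-KD and 0, 3 and 0 in NC, and block 10 after it, of 80 bases, had 47, 8 and 59 and in NC 0, 2 and 0. The exon was thus counted close to its neighbours in Eif4a3-KD libraries 1 and 3, and NC held too few counts to compare its use. Blocks 2, 4 and 5 held at most 7 counts in a library. Usage could be tested for 2 of the 12 blocks, and neither was called (block 7 had the smallest unadjusted p, with an edgeR adjusted p of 1.0), where 0.175% of 67890 blocks of all genes were called.

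Eda2r encodes the receptor for the A2 form of ectodysplasin and was the highest of the 8 genes per kilobase in both groups. It had 149.6, 168.5 and 246 CPM in Eif4a3-KD libraries, against 36.3, 51.9 and 36.7 CPM in NC libraries. Every Eif4a3-KD library stood far above the highest NC library, and Eif4a3-KD replicate 3 was the highest of all. Means were 188 ± 51.1 CPM in Eif4a3-KD and 41.6 ± 8.89 CPM in NC, a 4.52-fold difference (log2 fold change 2.18, standard error 0.31, edgeR adjusted p = 0.00430). The call held in all 14 alternatives run, with log2 fold changes of 1.93 to 2.31 (adjusted p 6.6e-08 to 0.0231).

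Eda2r lies at chrX:97333840-97377216 on the minus strand, in 8 blocks of 5891 bases. The difference ran along the whole transcript, from 4.05-fold to 4.85-fold in blocks 1 to 7. The 4 blocks nearest the 5′ end held 49.0, 50.7 and 49.4% of the gene's counts in Eif4a3-KD, against 48.01, 49.7 and 50.3% in NC. Block 8, the 3611 bases nearest the 3′ end, differed 2.29-fold and held 2.47, 4.10 and 2.25% of the gene's counts in Eif4a3-KD, against 4.12, 6.40 and 6.08% in NC. The shares did not overlap (exact permutation p = 0.1). In the usage test this block had the smallest unadjusted p of any block of the 8 genes, and its edgeR adjusted p was 1.0.

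Because Eda2r and Xiap are X-linked, the sex-linked genes are given beside them. Xist, the RNA of the inactive X, had 17.2, 41.3 and 168.9 CPM in Eif4a3-KD and 151.4, 104.1 and 128.6 CPM in NC, with 96.1% of its counts in blocks that overlap its antisense partner Tsix. The Y-linked gene Eif2s3y had 95.4, 126 and 32.3 CPM in Eif4a3-KD and 17.5, 61.8 and 58.1 CPM in NC. Of the 4 Y-linked genes measured, Ddx3y, Eif2s3y and Kdm5d overlapped between the groups. Uty was higher in every Eif4a3-KD library, with 11.9, 11.6 and 3.73 CPM in Eif4a3-KD and 0.448, 3.65 and 3.15 CPM in NC, and did not pass (log2 fold change 1.92, edgeR adjusted p = 0.104). The part of the embryos' sex in the X-linked results was not tested.

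Tnfrsf10b encodes the receptor for the death ligand Trail (Tnfsf10). It had 96.8, 66.8 and 71.3 CPM in Eif4a3-KD libraries, against 25.1, 29.9 and 39.5 CPM in NC libraries. The groups did not overlap, with replicate 1 the highest in Eif4a3-KD and the lowest in NC. Means were 78.3 ± 16.2 CPM in Eif4a3-KD and 31.5 ± 7.34 CPM in NC, a 2.49-fold difference (log2 fold change 1.31, standard error 0.30, edgeR adjusted p = 0.0208). The call was lost without NC replicate 1 (1.16, adjusted p = 0.0868) and without NC replicate 2 (1.24, adjusted p = 0.0996), and adjusted p ranged from 0.00340 to 0.0996 over its 14 alternatives. The gene lies at chr14:69767472-69784411 on the plus strand, in 9 blocks of 5451 bases. All 9 blocks were higher in Eif4a3-KD, by 2.27-fold to 2.98-fold, and of the 8 tested for usage none was called (block 4 had the smallest unadjusted p, with an edgeR adjusted p of 1.0).

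**Figure D2:**
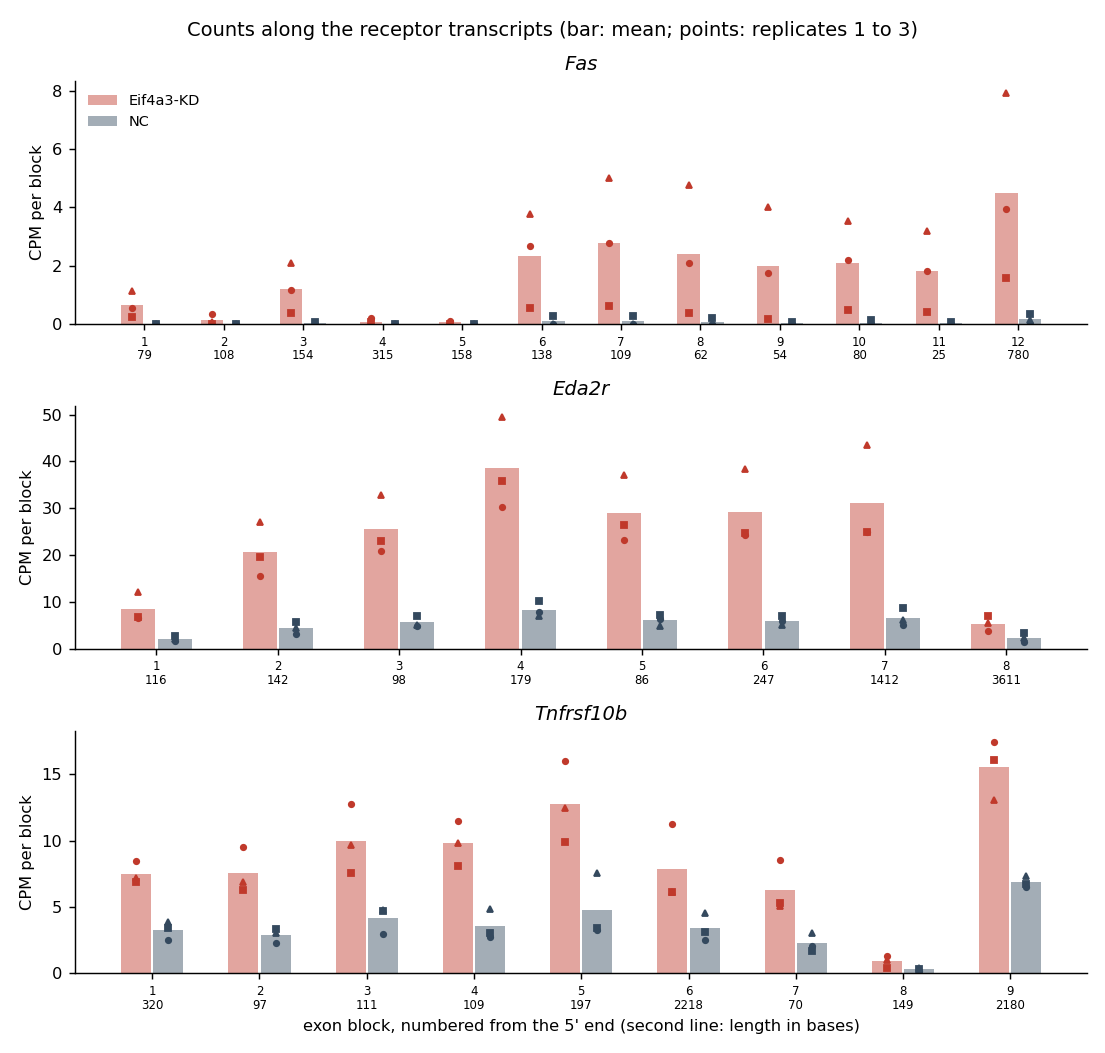
CPM of each exon block of Fas, Eda2r and Tnfrsf10b, numbered from the 5′ end with its length in bases below, as the mean (bar) and the 3 libraries (points) of Eif4a3-KD (red) and NC (grey blue). Blocks 1 to 7 of Eda2r differ by 4.05-fold to 4.85-fold and its block 8 by 2.29-fold, and all 9 blocks of Tnfrsf10b differ by 2.27-fold to 2.98-fold.

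Fadd, the adaptor between receptor and caspase, was low and did not pass. It had 4.92, 3.45 and 5.60 CPM in Eif4a3-KD libraries, against 7.61, 4.52 and 3.94 CPM in NC libraries. The groups overlapped, and NC replicate 1 stood highest. Means were 4.66 ± 1.10 CPM in Eif4a3-KD and 5.35 ± 1.97 CPM in NC (log2 fold change -0.20, standard error 0.45, edgeR adjusted p = 0.799), and without NC replicate 1 the sign turned to 0.13. Fadd lies at chr7:144577318-144582463 on the minus strand in 2 blocks. Of its counts 81.7% fell in the block that the antisense gene Faddos overlaps, and these cannot be assigned to either gene.

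Casp8, the initiator caspase that Fadd recruits, was close to the limit of detection. It had 21, 9 and 3 counts in Eif4a3-KD libraries, against 33, 16 and 2 counts in NC libraries, or 0.984, 0.545 and 0.181 CPM against 1.64, 1.06 and 0.131 CPM. Each group was lowest in replicate 3 and the groups overlapped. Means were 0.570 ± 0.402 CPM in Eif4a3-KD and 0.945 ± 0.762 CPM in NC (log2 fold change -0.72, standard error 0.90, edgeR adjusted p = 0.635), so a difference was not detectable at this depth. Casp8 lies at chr1:58795374-58847503 on the plus strand, and none of its 11 blocks had the counts for a usage test.

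Casp9, the initiator caspase of the apoptosome, was lower in every Eif4a3-KD library but did not pass. It had 6.70, 5.69 and 6.38 CPM in Eif4a3-KD libraries, against 9.10, 7.90 and 8.53 CPM in NC libraries. The groups did not overlap, and the spread within each was small: 6.26 ± 0.515 CPM in Eif4a3-KD and 8.51 ± 0.600 CPM in NC. The edgeR test gave a log2 fold change of -0.44 (standard error 0.36, adjusted p = 0.439), and the exact permutation test gave p = 0.1, the smallest that 3 against 3 libraries allow. Casp9 lies at chr4:141793612-141815976 on the plus strand, and 56.9% of its counts lay in the last of its 10 blocks, which the minus-strand gene Cela2a overlaps. Cela2a had 6.47, 9.57 and 28.5 CPM in Eif4a3-KD and 10.3, 11.6 and 15.7 CPM in NC. Without the overlapped block the log2 fold change of Casp9 was -0.95 and did not pass either (adjusted p = 0.249, range over its 14 alternatives 0.249 to 0.995). Counted by the overlapped block alone, its most counted block, the log2 fold change of Casp9 was -0.0039 (adjusted p = 0.995). The size of the decrease thus depended on the blocks used. Block 3, of 1652 bases, had the smallest unadjusted p for usage of its 3 tested blocks, with an edgeR adjusted p of 1.0. Its share of counts was 7.69, 1.06 and 0.943% in Eif4a3-KD, against 9.84, 3.36 and 7.69% in NC, with overlap. Block 8, with too few counts for the usage test, held 4.90, 4.26 and 3.77% in Eif4a3-KD, against 9.84, 12.6 and 6.92% in NC. These shares of block 8 did not overlap (exact permutation p = 0.1).

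Apaf1, the scaffold of the apoptosome, did not pass, and its counts lay unevenly along the transcript. It had 10.03, 10.9 and 6.32 CPM in Eif4a3-KD libraries, against 8.06, 7.90 and 7.28 CPM in NC libraries. Eif4a3-KD replicates 1 and 2 stood above NC and replicate 3 below it. Means were 9.08 ± 2.43 CPM in Eif4a3-KD and 7.75 ± 0.409 CPM in NC (log2 fold change 0.23, standard error 0.37, edgeR adjusted p = 0.722). Apaf1 lies at chr10:90989311-91082770 on the minus strand, in 28 blocks. The 14 blocks nearest the 5′ end held 57.0, 12.2 and 31.4% of its counts in Eif4a3-KD, against 27.2, 21.01 and 16.2% in NC. The last block, of 2286 bases, held 14.5, 35.6 and 38.1% of its counts in Eif4a3-KD, against 38.3, 47.1 and 59.5% in NC. The shares of the last block did not overlap (exact permutation p = 0.1), those of the 5′ blocks did, and no block had the counts for the usage test. Counted by its last block alone, the most counted block, Apaf1 had a log2 fold change of -0.48 (adjusted p = 0.487), the opposite sign.

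Xiap, which binds and inhibits caspases including Casp9, was lower in every Eif4a3-KD library but did not pass. It had 4.26, 9.03 and 10.47 CPM in Eif4a3-KD libraries, against 10.49, 14.2 and 10.6 CPM in NC libraries. The groups were separated only by the small gap between Eif4a3-KD replicate 3 and NC replicate 1. Means were 7.92 ± 3.25 CPM in Eif4a3-KD and 11.8 ± 2.13 CPM in NC (log2 fold change -0.57, standard error 0.42, edgeR adjusted p = 0.390). Xiap lies at chrX:42059679-42109656 on the plus strand, in 13 blocks. Block 7, of 1397 bases at chrX:42071242-42072638, where a further RefSeq start is annotated, held 15.4, 14.1 and 21.3% of its counts in Eif4a3-KD and 7.11, 9.35 and 4.97% in NC. These shares did not overlap (exact permutation p = 0.1), and the edgeR usage test of this block gave an adjusted p of 1.0. Block 6 before it held 14.3, 9.40 and 15.5% in Eif4a3-KD and 7.58, 7.48 and 5.59% in NC, also without overlap (exact permutation p = 0.1). The last block, of 4866 bases, had 24, 64 and 54 counts in Eif4a3-KD and 88, 117 and 81 counts in NC.

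**Figure D3:**
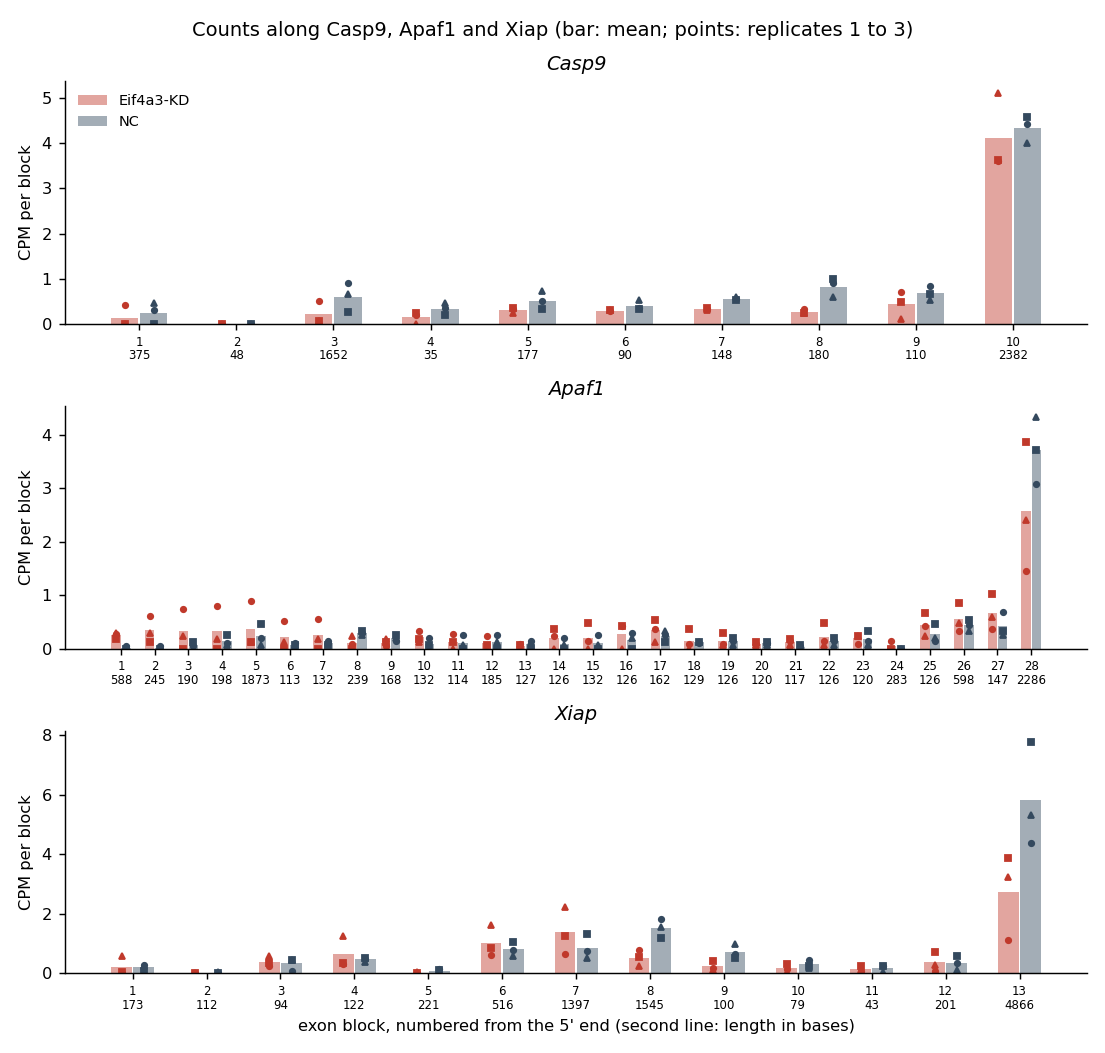
CPM of each exon block of Casp9, Apaf1 and Xiap, numbered from the 5′ end with its length in bases below, as the mean (bar) and the 3 libraries (points) of Eif4a3-KD (red) and NC (grey blue). The last block holds the most counts in all 3 genes. In Xiap, block 7 holds a larger share in every Eif4a3-KD library (14.1 to 21.3%) than in NC (4.97 to 9.35%), as does block 6 (9.40 to 15.5% against 5.59 to 7.58%). The usage test called neither block. How often shares separate over the blocks of all genes was not computed, so no result is drawn from these shares.

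Of the 93 blocks of the 8 genes 27 could be tested for usage and 0 were called, where 0.175% of all blocks tested were called. Of these, 2 (block 8 of Eda2r and block 7 of Xiap) lay below an unadjusted p of 0.05, and limma called 0. Besides the last block of Apaf1 and these 2, shares did not overlap for Casp9 block 8, Xiap block 6 and Apaf1 blocks 1, 2 and 21. Each had an exact permutation p of 0.1, the smallest possible. How often shares separate over the blocks of all genes was not computed, so no result is drawn from these separations. Per kilobase of merged exon, the order of levels in Eif4a3-KD was Eda2r (31.9 ± 8.67 CPM per kilobase), Tnfrsf10b (14.4 ± 2.97), Fas (9.71 ± 7.47), Casp9 (1.20 ± 0.0990), Fadd (1.19 ± 0.281), Apaf1 (1.01 ± 0.270), Xiap (0.836 ± 0.343) and Casp8 (0.197 ± 0.139). Of neighbours in this order, Eda2r stood apart from Tnfrsf10b in every library, as did Xiap from Casp8, while Tnfrsf10b and Fas overlapped (12.3 to 17.8 against 2.35 to 17.3) and Casp9, Fadd, Apaf1 and Xiap overlapped in turn. Fas lay above Casp9 in every library (at least 2.35 against at most 1.29 CPM per kilobase). In NC the order was Eda2r (7.06 ± 1.51 CPM per kilobase), Tnfrsf10b (5.78 ± 1.35), Casp9 (1.64 ± 0.115), Fadd (1.37 ± 0.506), Xiap (1.24 ± 0.224), Apaf1 (0.858 ± 0.0453), Casp8 (0.327 ± 0.263) and Fas (0.247 ± 0.373). There Eda2r and Tnfrsf10b overlapped (6.15 to 8.80 against 4.60 to 7.25), as did Casp8 and Fas, and Casp9, Fadd and Xiap in turn. Xiap stood apart from Apaf1 and Apaf1 from Casp8, and both receptors stood above the other 6 genes in every library. Because a pair counts in every block it overlaps, genes with many short blocks count more per kilobase than genes with few long ones. Both orders therefore depend in part on exon structure.

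The wider pathway was described by 65 further genes in 7 lists, of which 49 were tested: 4 were called higher, 4 lower and 41 did not pass. Their median log2 fold change was -0.35, against 0.03 for all genes tested, and 7.52% of all genes tested were called higher and 5.56% lower. These lists too were chosen with earlier results of the data known, so the comparison only describes them. Among 7 ligands only 3 were tested. Tnf, Lta, Tnfsf10 and Tnfsf15 had 0 counts in all libraries, so the ligand of Tnfrsf10b was not detected at this depth. Eda, whose A2 form binds Eda2r and which is also X-linked, had 13.2, 16.7 and 17.6 CPM in Eif4a3-KD, against 6.42, 7.11 and 5.12 CPM in NC, without overlap (log2 fold change 1.35, standard error 0.35, edgeR adjusted p = 0.0314). The counts do not separate its A1 and A2 forms, and this call was lost in 5 of the 6 fits that left out a library (adjusted p up to 0.103), all but that without Eif4a3-KD replicate 1. Fasl, the ligand of Fas, named here after its values were seen, had 0.422, 1.57 and 0.120 CPM in Eif4a3-KD and 0.448, 0.863 and 1.77 CPM in NC and did not pass (log2 fold change -0.54, adjusted p = 0.733; 0.086 on the log2 scale without NC replicate 3).

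Of 11 further TNF receptor family genes 7 were tested and 1 was called higher. This was Tnfrsf23, a decoy receptor for Trail in the mouse, with 3.61, 3.39 and 5.12 CPM in Eif4a3-KD, against 1.49, 1.13 and 0.722 CPM in NC (log2 fold change 1.84, standard error 0.52, edgeR adjusted p = 0.0447). It is uncertain: 58.7% of its counts lay in blocks that another gene overlaps, it has close paralogs, and its call was lost in 9 of 13 alternatives. Of 14 adaptors and regulators, all tested, Mlkl was called higher and 13 did not pass. Mlkl, the executioner of necroptosis, had 18.2, 16.6 and 11.2 CPM in Eif4a3-KD, against 4.82, 3.98 and 2.62 CPM in NC, without overlap (log2 fold change 2.0, standard error 0.40, edgeR adjusted p = 0.0127; 0.0601 without NC replicate 2).

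Of 8 other caspases 5 were tested and 1, Casp14, a caspase known from keratinocyte differentiation, was called higher. It had 12.8, 1.82 and 8.97 CPM in Eif4a3-KD, against 0.895, 0.730 and 1.51 CPM in NC (log2 fold change 2.91, standard error 0.71, edgeR adjusted p = 0.0252), and the call was lost in 5 of the 6 fits that left out a library (adjusted p up to 0.0991), all but that without Eif4a3-KD replicate 2. Of 6 mitochondrial death factors 1 was called lower, the X-linked Aifm1, with 33.04, 16.4 and 14.3 CPM in Eif4a3-KD, against 70.8, 45.8 and 45.9 CPM in NC (log2 fold change -1.35, edgeR adjusted p = 0.0453). Without Eif4a3-KD replicate 1 it kept its call, and without any other library it lost it (adjusted p up to 0.151), as it did with all exon lines summed (0.0607). Of 10 further genes, the rest of the IAP family and the Xiap-associated factor Xaf1, 5 were tested and 1 was lower. Birc6, a giant ubiquitin ligase that inhibits caspases, had 25.6, 42.1 and 36.2 CPM in Eif4a3-KD, against 124, 107 and 88.98 CPM in NC (log2 fold change -1.62, standard error 0.30, edgeR adjusted p = 0.00911), and its call held in all 14 alternatives.

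Of 9 caspase substrates, all tested, Lmna and Parp1 were called lower and 7 did not pass. Lmna, which encodes lamin A/C, had 17.9, 23.3 and 24.9 CPM in Eif4a3-KD, against 166, 94.03 and 34.98 CPM in NC (log2 fold change -2.16, edgeR adjusted p = 0.0196). Parp1, a DNA damage sensor cleaved in apoptosis, had 29.9, 27.9 and 30.1 CPM in Eif4a3-KD, against 102.8, 85.1 and 48.4 CPM in NC (log2 fold change -1.43, edgeR adjusted p = 0.0203). For both genes the groups did not overlap, NC was the more variable group, and the call was lost without Eif4a3-KD replicates 2 or 3 or NC replicates 1 or 2 (adjusted p up to 0.0666 for Lmna and 0.0732 for Parp1).

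**Figure D4:**
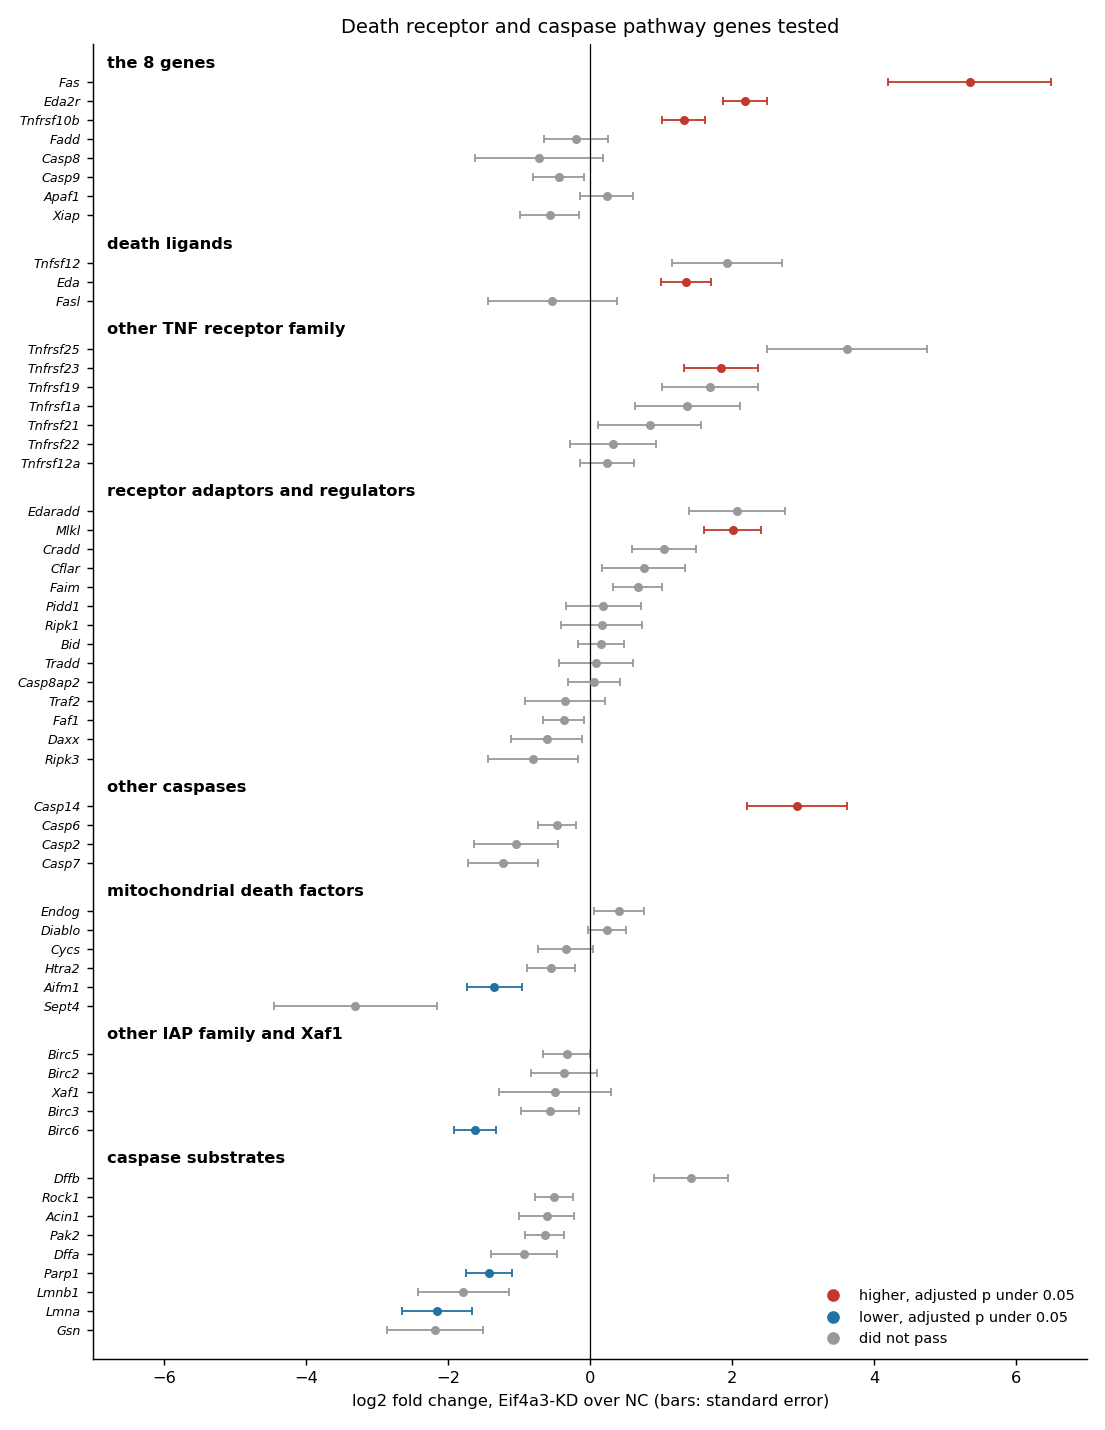
Log2 fold change, Eif4a3-KD over NC, with its standard error for the 8 genes and tested genes of the 7 further lists, in red or blue where the edgeR adjusted p is under 0.05. Fas (5.34), Eda2r (2.18) and Tnfrsf10b (1.31) are the called genes among the 8, and 4 genes each are called higher and lower in the lists.

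Among 20 further genes of the p53 pathway, all tested, 5 were called higher, 0 lower and 15 did not pass, with a median log2 fold change of 0.74. Over all genes tested 7.52% were called higher and 5.56% lower, and the median was 0.03. The list was chosen with earlier results of these data known, so this comparison is a description and not independent evidence. Trp53inp1, a p53-induced promoter of cell death, had 96.4, 116.8 and 133 CPM in Eif4a3-KD, against 22.5, 34.5 and 32.4 CPM in NC (log2 fold change 1.95, standard error 0.30, edgeR adjusted p = 0.00476). Mdm2, the ubiquitin ligase that restrains p53, had 116.1, 65.9 and 86.5 CPM in Eif4a3-KD, against 25.2, 35.8 and 29.8 CPM in NC (log2 fold change 1.57, standard error 0.31, edgeR adjusted p = 0.0124). Neither gene's groups overlapped. Ccng1 (log2 fold change 1.49, adjusted p = 0.00804) and Phlda3 (1.71, adjusted p = 0.0213) also rose, as did Plk2 (2.12, adjusted p = 0.0377), which was named after its values were seen. Leaving out a library ended the call of Mdm2 without NC replicate 1 (adjusted p = 0.0529), of Ccng1 without NC replicate 2 (0.0522) and of Phlda3 without Eif4a3-KD replicate 3, NC replicate 2 or NC replicate 3 (up to 0.0790). The call of Plk2, which had 172.5 CPM in Eif4a3-KD replicate 1 against 53.2 and 40.8 CPM in replicates 2 and 3, was lost without any library but Eif4a3-KD replicate 3. Its adjusted p was then up to 0.119, with a log2 fold change of 1.17 without Eif4a3-KD replicate 1, and the call was also lost with all exon lines summed (0.0609). Between 2 and 4 of the 20 genes were then called higher, the fewest without NC replicate 2. Trp53 itself, likewise named afterwards, had 81.3, 46.03 and 65.1 CPM in Eif4a3-KD and 74.9, 62.5 and 114.8 CPM in NC and did not pass (log2 fold change -0.39, adjusted p = 0.466).

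Eda2r had the smallest unadjusted p of the 8 genes, so the genes closest to it were sought among 6770 genes averaging at least 10 CPM. By the Pearson correlation of log2(CPM + 1) over the 6 libraries, which share the group difference, the closest were Psmf1 (0.998), Sac3d1 (0.996), Otud6b (0.995), Timm8a2 (0.993) and Mdm4 (0.993). These values describe a likeness of profile only. Mdm4, which encodes a binding partner of p53, had 176, 208 and 226 CPM in Eif4a3-KD, against 56.6, 71.6 and 61.5 CPM in NC, without overlap.

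**Figure D5:**
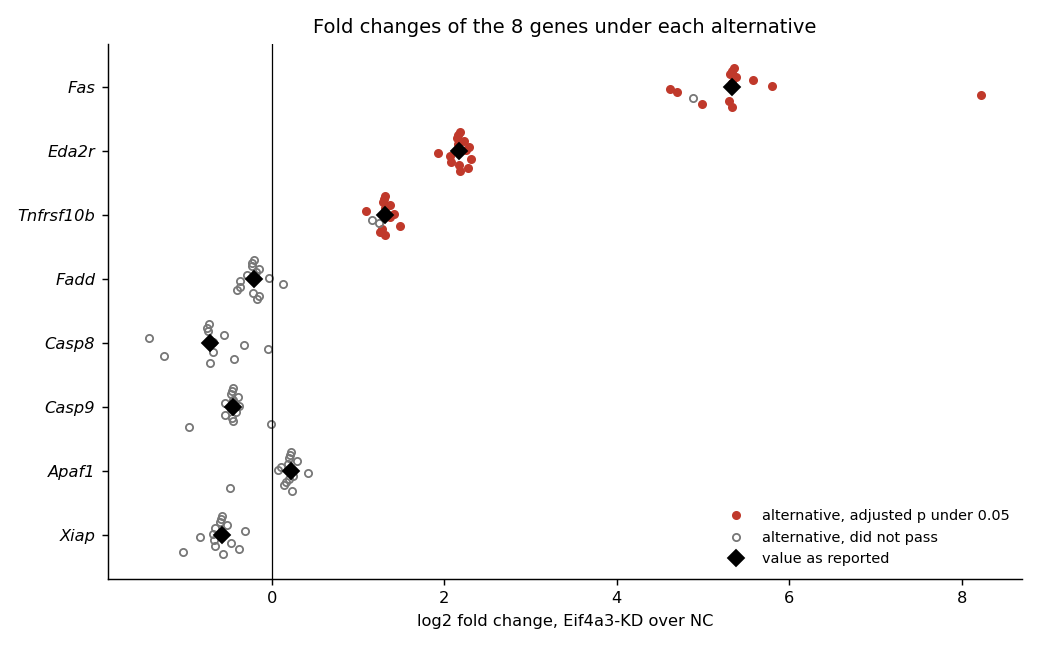
Log2 fold change, Eif4a3-KD over NC, of the 8 genes as reported (black diamonds) and under each alternative processing (red where the adjusted p is under 0.05, open grey where it is not). Fas spans 4.61 to 8.22 and Eda2r 1.93 to 2.31, and Apaf1 (-0.48) and Fadd (0.13) each cross 0 under 1 alternative.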

How the data were processed

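RNA of 6 pools of mouse embryos was sequenced as read pairs of 150 bases. Per the submitters' processing notes, the authors used FastQC 0.11.9, fastp 0.20.1, STAR 2.7.6a, featureCounts 2.0.1, R 4.1.1 and DESeq2 1.34.0 with GRCm38. Per the file headers, the authors deposited raw counts per exon line of GENCODE vM29 lifted to GRCm38, with strand setting 2, pairs counted in every exon they overlap and multi-mapping pairs not counted. Smart-seq2 does not mark strand, so genes that overlap on opposite strands cannot be told apart. The planned tests assumed counts per gene. The 842173 lines (449500 distinct) were therefore merged into 291424 blocks, the most counted line of each block was kept, and blocks were summed over 55378 genes (55102 with a symbol). A pair that spans a junction counts in each block, so sums are not pairs.

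Genes were compared with edgeR 4.0.16 in R 4.3.3 (filterByExpr, TMM, glmQLFit, glmQLFTest, two-sided, Benjamini-Hochberg over 15619 genes, threshold 0.05), and block usage with diffSpliceDGE over 67890 blocks. Per-sample shares used an exact two-sided permutation test (smallest p 0.1). DESeq2 1.42.0, limma 3.58.1, other filters and sums, and leaving out each library were alternatives. Counting error bounds cover counting error only. The scripts were tested on simulated data. The 8 genes and the lists were chosen with earlier results of these data known. Named genes are the 8, Eif4a3, the called genes of each list (up to 4 by p), 5 genes by likeness and the block with the smallest p per gene. Shares of the 5′ blocks and further names were added after the values were seen. Replicate numbers are shared by the groups, but same-numbered libraries did not all deviate together, and the comparison was unpaired. A gene of the caspase list is counted but not reported here by name.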

Additional observations from a re-analysis of the deposited data

How the results depend on the processing

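The 3 calls among the 8 genes held under RLE scaling, DESeq2, no filter, a filter of 5 CPM, summed lines, the most counted block and blocks that no other gene overlaps, and 2 to 3 held when a library was left out, with 0 called lower throughout. The call of Fas was lost without NC replicate 3 and that of Tnfrsf10b without NC replicates 1 or 2. Apaf1 turned to -0.48 with the most counted block and Fadd to 0.13 without NC replicate 1 (range without a library -0.40 to 0.13), neither passing, and Fasl ranged from -1.86 to 0.086 without a library; the cause was not tested. Eif4a3 ranged from -3.29 to -2.49 without a library and was -1.52 with the most counted block.

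Over all genes the 1174 called higher became 1899 with DESeq2, 2089 with no filter and 550 to 1224 without a library, and the 869 called lower became 1415, 1518 and 336 to 1130. The median of all genes was then 0.18 with DESeq2 and 0.17 with no filter, over 19907 and 31769 genes. Of the 65 pathway genes, 7 were higher and 7 lower both with DESeq2 and with no filter, 7 were lower with the most counted block, and 1 to 4 were higher and 1 to 6 lower without a library. Of the p53 genes 2 to 4 were higher without a library. Changed blocks over all genes numbered 249 with limma and 20 to 160 without a library, and 0 of the 8 genes' blocks in each.

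Same-numbered libraries had correlations of deviations of 0.37, 0.00074 and 0.13, and Eif4a3-KD replicates 2 and 3 were closest to NC replicates 3 and 2, so the numbers were not taken as pairs. With the replicate block, 1331 genes were higher, 1196 lower and 186 blocks changed, and the 8 genes kept 3 called higher (Fas 5.58, adjusted p = 0.0337; Eda2r 2.16; Tnfrsf10b 1.32) and 0 lower. Depth limits Casp8, Fas in NC and the block tests of Casp8 and Apaf1.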
